A study of Rattus norvegicus with 6 samples.

Results

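The genes described here encode the digestive and acidifying machinery of the lysosome and the core of autophagy. They were every row of the count table whose symbol names a lettered cathepsin other than Ctss, a subunit of the vacuolar proton pump (Atp6v0 and Atp6v1 genes), either of its accessory proteins (Atp6ap1 and Atp6ap2), a numbered LAMP protein or a numbered ATG protein. This gave 62 of the 22601 genes in the table: 17 cathepsins, 9 V0 and 13 V1 subunits, 2 accessory proteins, 4 LAMP genes and 17 ATG genes. The tissue was hippocampus by the sample labels and ventral hippocampus by the design text of the series. The animals were male rats of the outbred Sprague Dawley stock. Aged rats were 22 months old and adult rats were 4 months old. Each age group of 10 had first been through the Morris water maze, a test of spatial memory in a pool. A random 3 of each age then gave 1 RNA-seq library per rat, 6 in all.

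Lysosomes break down proteins, lipids and whole organelles with acid hydrolases. The cathepsins are their proteases, and they work in the acid that the V-ATPase makes by pumping protons with energy from ATP. The V-ATPase has a cytosolic V1 part, which hydrolyses ATP, and a membrane V0 part, which carries protons across, and in neurons it also acidifies synaptic vesicles for transmitter loading. LAMP proteins line the lysosomal membrane. ATG proteins build the autophagosome, the double membrane that delivers cytoplasm to the lysosome, and neurons depend on this route because they do not divide.

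Library totals lay between 12476758 and 15689921 counts. Markers of neurons summed to 8360, 6015 and 6433 CPM in aged rats, against 6287, 6541 and 7207 CPM in adult rats. CPM values are counts scaled to library size by the trimmed mean of M values (TMM). The hippocampal markers Prox1, C1ql2, Wfs1 and Neurod6 together summed to between 309 and 690 CPM over the 6 libraries. Single markers were less even than these sums. Wfs1 stood at 131, 162 and 76.6 CPM in aged rats, against 34.9, 224 and 233 CPM in adult rats. Among neuronal markers Camk2a ranged from 102 to 394 CPM, while Snap25 ranged from 2090 to 2778 CPM. The part of such differences in the members' values was not tested. Several libraries stood apart in markers of other tissues. In adult replicate 1 the choroid plexus markers summed to 2554 CPM, against 99.2 to 184 CPM in the other 5 libraries, with Otx2 at 0 counts in all 6. Skeletal muscle markers summed to 484 CPM in adult replicate 3, against 51.7 to 152 CPM in the other 5 libraries. Liver markers summed to 25.9, 273 and 213 CPM in aged rats, against 22.9, 554 and 552 CPM in adult rats, so replicate 1 of each age lay far below the other 4 libraries. The part of these tissues in the members' values was not tested. Oligodendrocyte markers summed to 6621, 6986 and 8810 CPM in aged rats, against 16820, 11440 and 11220 CPM in adult rats. Endothelial markers summed to 320, 365 and 272 CPM in aged rats, against 368, 482 and 353 CPM in adult rats. Astrocyte markers summed to 2154, 2529 and 2175 CPM in aged rats, against 2335, 2685 and 2129 CPM in adult rats. Fitted values were lower in aged rats for 6 of 6 endothelial and 5 of 6 astrocyte markers, though both sums overlapped between ages. Each of these sums was taken over bulk tissue, in which fewer cells of a type and less RNA per cell cannot be told apart.

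The machinery was expressed at both ages, and no member passed the test for a difference between them. Of the 62 members, 50 passed the filter on low counts, and edgeR's quasi-likelihood test called 0 of the 50 at an adjusted p under 0.05 (Benjamini-Hochberg over all 14588 genes tested). The same test called 0.0% of all genes, and the smallest adjusted p of a member was 1.0. With p unadjusted and a threshold of 0.05, 0 members were higher and 1 was lower in aged rats (Ctsl), against 1.18% of all genes tested that were higher and 2.27% that were lower. DESeq2 and limma-voom also called 0 members, with 1 member each, again Ctsl, at an unadjusted p under 0.05.

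The estimates were tight enough to bound the change of most members. The 95% interval of the fold change lay within 1.5-fold in either direction for 38 of the 50 tested members (76.0%), against 49.9% of all genes tested. The width of an interval depends on the number of counts, and these shares were not matched for expression level. Over the 50 members the log2 fold change, aged minus adult, had a median of 0.0217, with 28 values above and 22 below 0, and over all genes tested the median was -0.00219. The values ran from -0.35 (Atg7) to 0.40 (Ctsz). Aged and adult values did not overlap in 2 members that were higher in aged rats (Atp6v1b2 and Atp6v1h) and 2 that were lower (Ctsl and Atg5). Among all genes tested 3.13% were separated with aged higher and 4.43% with aged lower, so the members' counts stood near the background.

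**Figure D1:**
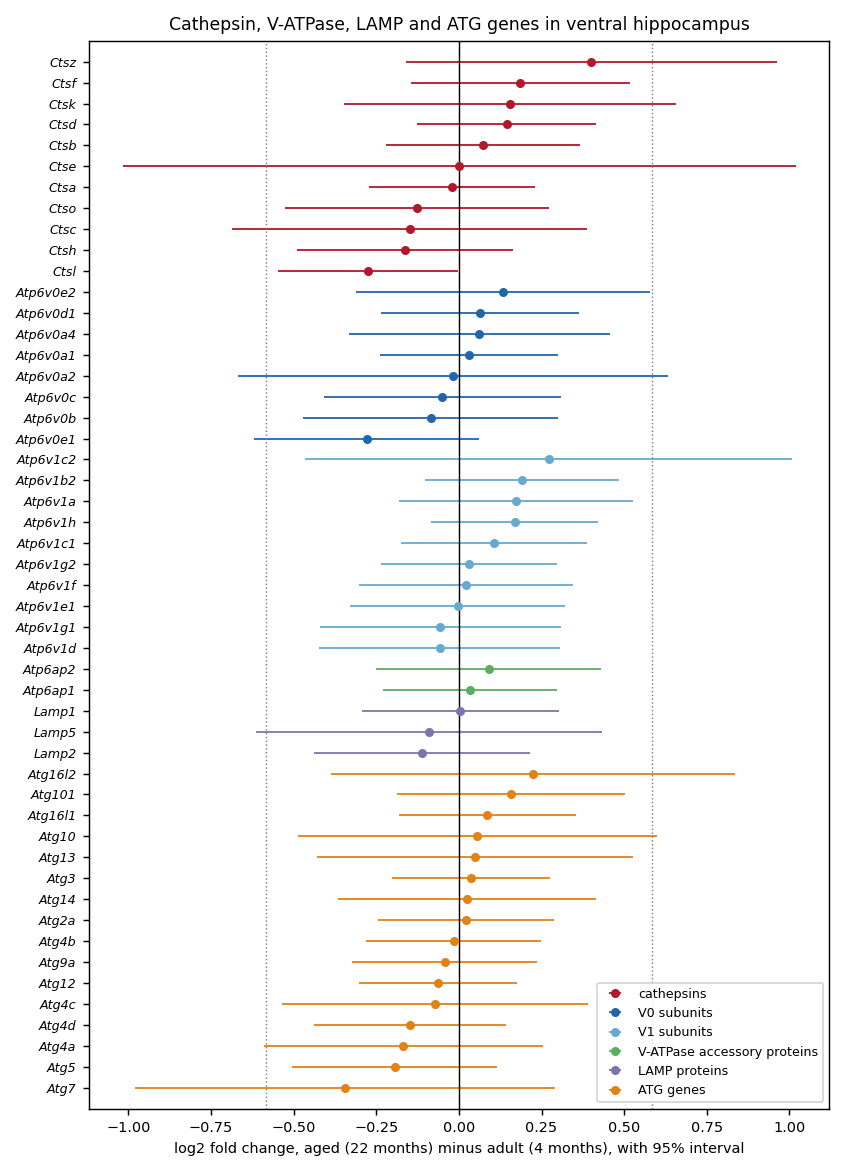
Log2 fold change of the 50 tested members, aged (22 months) minus adult (4 months), with 95% intervals from edgeR's quasi-likelihood fit (n = 3 rats per age), coloured by class. The dotted lines mark 1.5-fold either way, within which 38 of the 50 intervals lie, and the interval of Ctsl ends just below 0.

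Levels between genes were compared in FPKM, which divides each count by the length of the gene. The members covered a wide range of levels: 18 averaged at least 100 FPKM, 19 lay between 10 and 100, 11 between 1 and 10, 9 below 1 and 5 were at 0 in every library. The proton pump supplied most of the transcripts. Summed over its members, V1 reached 2277 ± 111.1 FPKM in aged and 2198 ± 132 FPKM in adult rats, and V0 reached 1950 ± 147 FPKM in aged and 1952 ± 131 FPKM in adult rats (SD, n = 3 each). The cathepsins summed to 808 ± 52.3 FPKM in aged and 778 ± 42.0 FPKM in adult rats. The LAMP genes summed to 278 ± 8.24 FPKM in aged and 278 ± 18.4 FPKM in adult rats, and the ATG genes to 307 ± 12.01 FPKM in aged and 304 ± 8.23 FPKM in adult rats. None of these sums differed between the ages by more than the larger of its 2 SDs.

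A sequence feature already known from lysosomal genes was looked for in the promoters of the members, which were chosen by name. In human lysosomal genes the transcription factor TFEB binds the CLEAR element, a palindrome around CACGTG. RefSeq promoters of the assembly GRCr8, 250 bases before to 50 bases after the annotated start, were at hand for 53 of the 62 members. The 6 bases CACGTG were in 8 of these (15.1%), against 6.42% of all 33469 promoters and 8.74% of the 12207 promoters of genes tested. The 8-base form TCACGTGA, which contains the first, was in 5 (9.43%), against 0.777% of all promoters and 1.48% of those of genes tested. Both strings read the same on both strands. The windows around the match are shown for the 4 members in which it lies before the start, with TCACGTGA in capitals; in the fifth, Atp6v0e1, it lies 23 bases past the start.
Ctsd (chr1:206968795-206968862, minus strand): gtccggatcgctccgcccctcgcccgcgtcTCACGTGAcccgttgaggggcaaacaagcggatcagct
Lamp1 (chr16:83075065-83075159, minus strand): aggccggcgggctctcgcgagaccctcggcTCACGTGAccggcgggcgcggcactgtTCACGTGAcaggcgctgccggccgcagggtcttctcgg
Atp6v0d1 (chr19:50357264-50357331, minus strand): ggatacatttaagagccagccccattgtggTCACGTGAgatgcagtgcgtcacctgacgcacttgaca
Atg3 (chr11:69159260-69159327, minus strand): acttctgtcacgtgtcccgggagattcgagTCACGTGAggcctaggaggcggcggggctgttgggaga
The match began 11 bases before the start in Ctsd, 53 in Atp6v0d1 and 17 in Atg3. In Lamp1 there were 2 matches, beginning 66 and 39 bases before it. These are matches of letters and not sites shown to be bound. The 5 carriers had a median log2 fold change of 0.0352, and only Atp6v0e1 lay below 0, at -0.28. Ctsd was at 0.15, Atp6v0d1 at 0.064, Atg3 at 0.035 and Lamp1 at 0.0044. Tfeb itself stood at 10.4, 12.4 and 11.3 CPM in aged rats, against 17.9, 14.7 and 14.9 CPM in adult rats. Its groups did not overlap, but its log2 fold change of -0.47 ± 0.17 (SE) had an adjusted p of 1.0 by edgeR (unadjusted p = 0.0244). Tfe3, a relative of Tfeb that binds the same element, was at 38.0, 42.9 and 35.3 CPM in aged rats, against 35.0, 34.2 and 38.6 CPM in adult rats.

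Among the proteases, 4 of the 17 cathepsins made up 83.1% of the summed FPKM of the class. Ctsb, a cysteine protease and the most abundant of them, stood at 351, 344 and 307 FPKM in aged rats, against 313, 336 and 296 FPKM in adult rats. Ctsd, the main aspartic protease of the lysosome, stood at 183, 172 and 169.5 FPKM in aged rats, against 164, 163 and 143 FPKM in adult rats. Ctsl, a cysteine endopeptidase, stood at 77.5, 89.5 and 75.1 FPKM in aged rats, against 95.3, 96.9 and 97.6 FPKM in adult rats. Ctsa, a serine carboxypeptidase that also protects lysosomal galactosidase and neuraminidase, lay between 76.6 and 83.9 FPKM in all 6 libraries. The order Ctsb, Ctsd, Ctsl and Ctsa by mean FPKM was not resolved at its lower end, because the aged values of Ctsl overlap those of Ctsa.

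Ctsl was the member with the smallest p. On the CPM scale it stood at 108, 123 and 99.3 in aged rats, against 131, 132 and 138 in adult rats, so every aged rat lay below every adult rat. It averaged 110.3 ± 11.97 CPM in aged and 133 ± 3.73 CPM in adult rats (SD, n = 3 each). The fold change was 0.826 with a 95% interval of 0.684 to 0.998, an unadjusted p of 0.0477 and an adjusted p of 1.0 by edgeR. Leaving out 1 library moved the unadjusted p between 0.0191 and 0.135, and it was under 0.05 only without aged replicate 2. The oligodendrocyte marker sums given above were separated in the same direction, and their part in the Ctsl values was not tested.

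Ctsd and Ctsb had fitted values above 0 without passing the test. Ctsd stood at 371, 343 and 324.8 CPM in aged rats, against 325.5, 321 and 292 CPM in adult rats. Its lowest aged value fell just under its highest adult value, and its fold change was 1.106 (95% interval 0.917 to 1.334). Ctsb had a fold change of 1.051 (95% interval 0.858 to 1.288). In the GRCr8 annotation Ctsd overlaps the muscle troponin gene Tnni2 and Ctsa overlaps Pltp and Neurl2, so reads of the neighbours may be included in these values if counting ignored strand. Of the 62 members, 19 overlap a neighbour in that annotation, and the same limit applies to each. Among them are Ctsz (with Nelfcd), Atg7 (with LOC120102368) and Atp6v0e1 (with LOC120095059).

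Cathepsin Z, a carboxypeptidase abundant in microglia and named here after its values were seen, had the largest positive fold change of the members. Ctsz stood at 37.5, 44.3 and 21.8 CPM in aged rats, against 26.3, 28.1 and 24.0 CPM in adult rats. Aged replicates 1 and 2 lay above every adult rat and aged replicate 3 below every adult rat, so the ages overlapped. Its fold change of 1.320 had a 95% interval of 0.894 to 1.947, and its log2 fold change was 0.40. This value rested on single aged rats: it was 0.65 without aged replicate 3 (unadjusted p = 0.00418, adjusted p = 0.999 by edgeR) and 0.19 without aged replicate 2 (unadjusted p = 0.448, adjusted p = 0.966 by edgeR). Markers of microglia summed to 337, 463 and 321 CPM in aged rats, against 366, 362 and 280 CPM in adult rats, with 9 of the 10 markers in the table, all of them above 0 counts in every library, and 8 of 9 at higher fitted values in aged rats. Their part in the Ctsz values was not tested. Cathepsin S (Ctss), the microglial cathepsin that the choice of members leaves out, stood at 219.6, 292 and 221 CPM in aged rats, against 205, 169 and 143 CPM in adult rats. Its fold change of 1.418 had a 95% interval of 1.070 to 1.881, an unadjusted p of 0.0212 and an adjusted p of 1.0 by edgeR.

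The other tested cathepsins overlapped between ages. Ctsf, a cysteine protease, averaged 91.4 ± 8.04 CPM in aged and 80.3 ± 12.9 CPM in adult rats, and Ctsh, an aminopeptidase, averaged 62.9 ± 10.8 CPM in aged and 70.5 ± 3.80 CPM in adult rats (SD, n = 3 each). Ctso, Ctsk (the collagen-degrading cathepsin of osteoclasts), Ctsc (the activator of granule proteases) and Ctse stayed at or below 20.6 CPM in every library. Ctse varied most among the 50 tested members, with its highest library 2.48 times its lowest, yet its mean was 2.38 CPM in aged and 2.39 CPM in adult rats. Ctsw, a cathepsin of cytotoxic lymphocytes, reached at most 4 counts in a library. Ctsg, a protease of neutrophils, and Ctsj, Ctsm, Ctsq and Ctsr, which rodents express in the placenta, had 0 counts in all 6 libraries, which allows up to between 0.191 and 0.240 CPM per library (3 counts, for counting error only).

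**Figure D2:**
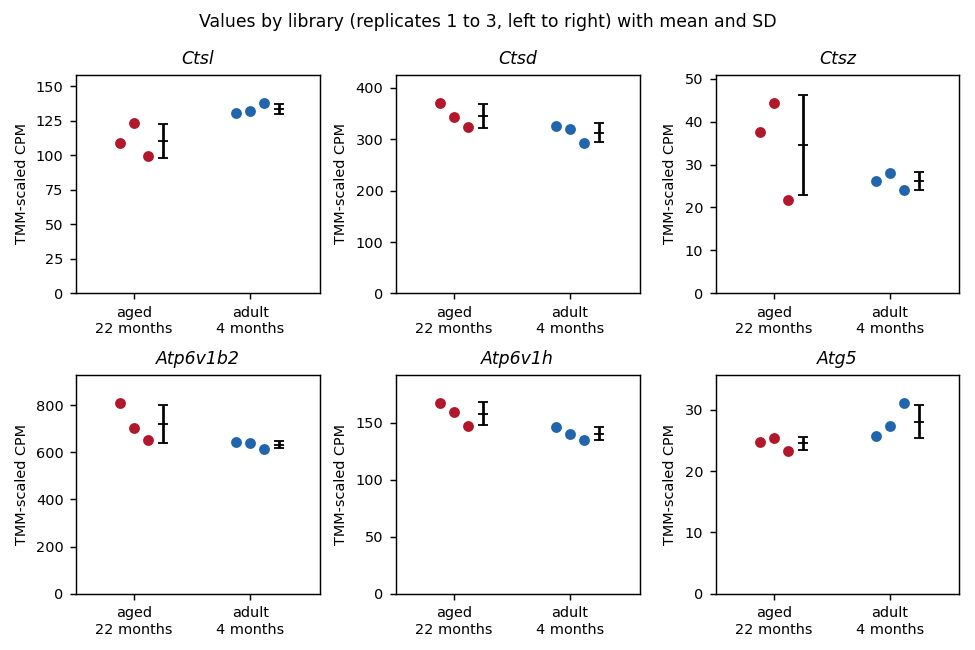
TMM-scaled CPM of 6 members in each library, with the mean and SD of each age (n = 3) as black bars; each axis starts at 0. The 3 aged values of Ctsl (99.3 to 123) lie below the 3 adult values (131 to 138), Ctsz spreads from 21.8 to 44.3 among aged rats, and Atp6v1h is separated by a margin smaller than the spread of either age.

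In the proton pump, 1 paralog carried nearly all of the signal for most subunits, and it was the same paralog in all 6 libraries. Atp6v0c, which forms the proton-carrying ring, was the highest member of all, ranking 34 in the table by mean FPKM. It stood at 993, 1069 and 868 FPKM in aged rats, against 1098, 868 and 1036 FPKM in adult rats. The lowest library of each age matched the other at 868 FPKM, and the fold change was 0.966 (95% interval 0.753 to 1.240). Atp6v0b, the other ring protein, stood at 248, 282 and 219 FPKM in aged rats, against 277, 217 and 293 FPKM in adult rats. Aged replicate 3 and adult replicate 2 were the lowest of their age for both ring genes.

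The a subunit, which anchors V1 to the membrane and steers the pump to its compartment, came almost wholly from Atp6v0a1. It stood at 163, 145 and 155 FPKM in aged rats, against 149.9, 150.1 and 148 FPKM in adult rats. Its share of the summed FPKM of Atp6v0a1, Atp6v0a2, Atp6v0a4 and Tcirg1, the gene of the a3 protein, was 91.9% ± 1.25 in aged and 91.8% ± 0.270 in adult rats. Atp6v0a4, known from acid-secreting cells of the kidney, was at 2.07 to 2.52 FPKM in aged rats and 1.88 to 2.46 FPKM in adult rats. Atp6v0a2 was at 5.41, 2.96 and 6.54 FPKM in aged rats, against 4.28, 5.68 and 4.97 FPKM in adult rats, the aged values surrounding the adult ones.

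The small e subunit was the V0 part with the largest fitted difference. Atp6v0e1 stood at 22.9, 28.7 and 25.9 CPM in aged rats, against 33.6, 27.5 and 32.8 CPM in adult rats, with adult replicate 2 inside the aged range. Its fold change was 0.824 (95% interval 0.651 to 1.043, adjusted p = 1.0 by edgeR). Its paralog Atp6v0e2, the form known from brain, was several times higher per length, at 219.9, 163 and 182 FPKM in aged rats against 129, 199.6 and 181 FPKM in adult rats. Atp6v0e2 made up 85.5% ± 3.28 of the summed e transcripts in aged and 81.5% ± 4.84 in adult rats (SD, n = 3 each), a difference of 4.05 percentage points. Exact two-sided permutation tests of 4 such shares (Atp6v0a1, Atp6v0e2, Atp6v1c1 and Atp6v1g2) gave p = 0.4 for this one and an adjusted p of 0.933, where 3 against 3 cannot go below 0.1. The stalk subunit Atp6v0d1 held at least 99.9% of the d transcripts, and Atp6v0d2, known from kidney and osteoclasts, reached at most 7 counts in a library.

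In V1, the head subunits that bind ATP came from Atp6v1a and Atp6v1b2. Atp6v1b2, the brain form of B, stood at 807, 701 and 653 CPM in aged rats, against 642, 638 and 614 CPM in adult rats. All 3 aged rats lay above every adult rat, and the fold change was 1.141 (95% interval 0.931 to 1.399) with an unadjusted p of 0.173 and an adjusted p of 1.0 by edgeR. Atp6v1a stood at 663, 464 and 542 CPM in aged rats, against 463, 506 and 512 CPM in adult rats, a fold change of 1.127 (95% interval 0.881 to 1.442) with overlapping ages. Aged replicate 1 was the highest library for both head genes. Atp6v1b1, the B form of kidney and inner ear, reached at most 2 counts in a library.

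Atp6v1h, the subunit that couples and silences the ATPase, was also separated by age. It stood at 167, 159 and 147.3 CPM in aged rats, against 146.8, 140.2 and 135 CPM in adult rats, a fold change of 1.124 (95% interval 0.943 to 1.338, unadjusted p = 0.163, adjusted p = 1.0 by edgeR). In the GRCr8 annotation Atp6v1h overlaps Rgs20 and Atp6v1b2 overlaps LOC102554171, so reads of these neighbours may be included likewise.

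Among the stalk subunits, Atp6v1e1 was the highest V1 gene. It stood at 456, 426 and 399 FPKM in aged rats, against 427, 378 and 466 FPKM in adult rats, and its fold change was 0.997 (95% interval 0.795 to 1.250). Atp6v1g2, the neuronal form of G, was steady at 392, 383 and 365 FPKM in aged rats, against 374, 374 and 358 FPKM in adult rats. Its general paralog Atp6v1g1 stood at 208, 271 and 221 FPKM in aged rats, against 279, 210.0 and 232 FPKM in adult rats. The G2 form made up 62.1% ± 3.41 of the G transcripts in aged and 60.7% ± 3.34 in adult rats (exact permutation p = 0.7, adjusted p = 0.933), the most even split of the subunits with several genes. Atp6v1g3 had 1 count over all 6 libraries and Atp6v1e2, known from testis, reached at most 12 counts in a library. Atp6v1c1 made up 98.5% ± 0.499 of the C transcripts in aged and 98.6% ± 0.373 in adult rats. The stalk genes Atp6v1d and Atp6v1f averaged 393 ± 41.8 and 199.8 ± 25.5 CPM in aged rats and 409 ± 66.8 and 197 ± 20.7 CPM in adult rats (SD, n = 3 each).

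The accessory proteins, which assemble the pump in the secretory pathway, were expressed at the level of its subunits. Atp6ap1 stood at 526, 487 and 464 CPM in aged rats, against 492, 482 and 469.6 CPM in adult rats. Atp6ap2, also called the prorenin receptor, stood at 224, 166 and 164 CPM in aged rats, against 181, 169.9 and 170.3 CPM in adult rats. Aged replicate 1 alone was above the adult range for Atp6ap2, and the other aged rats lay below every adult rat. The fold change was 1.064 (95% interval 0.840 to 1.348). Leaving out aged replicate 1 moved the log2 fold change of Atp6ap2 to -0.057 in place of 0.090, so its sign rested on 1 rat.

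**Figure D3:**
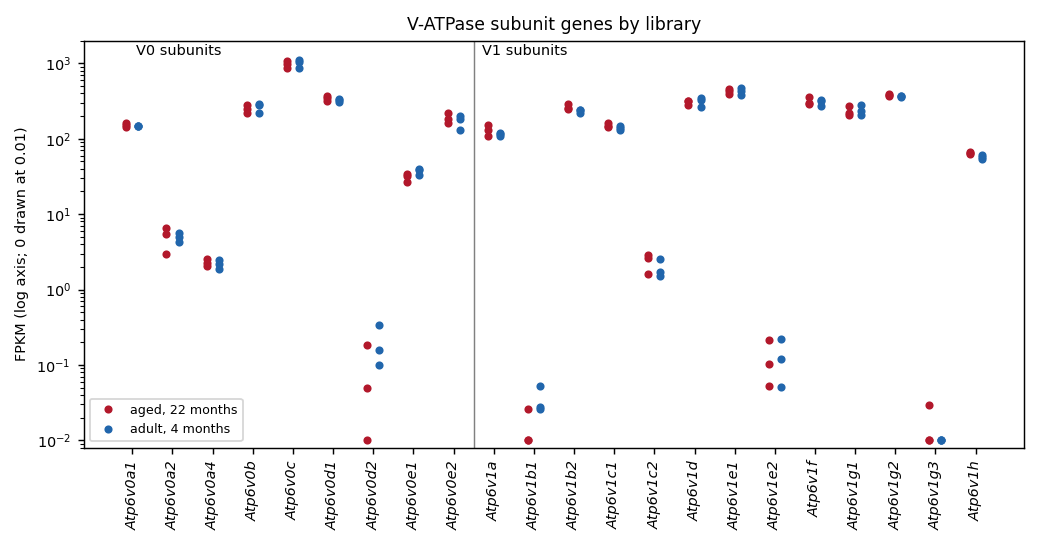
FPKM of the 22 V0 and V1 subunit genes in each library on a log axis, aged rats in red to the left of adult rats in blue; values of 0 are drawn at 0.01. Atp6v0c lies between 868 and 1098 FPKM over both ages, and Atp6v0d2, Atp6v1b1, Atp6v1e2 and Atp6v1g3 lie below 1 FPKM in every library.

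The LAMP genes were led by Lamp1, the main glycoprotein of the lysosomal membrane. It stood at 521, 558 and 485 CPM in aged rats, against 510.3, 576 and 473 CPM in adult rats, and its fold change was 1.003 (95% interval 0.816 to 1.234). Lamp2, an isoform of which is the receptor of chaperone-mediated autophagy, stood at 101, 109.7 and 101 CPM in aged rats, against 133, 109 and 95.1 CPM in adult rats. Adult replicate 1 was its highest library, and leaving it out moved the log2 fold change to 0.038 in place of -0.11, so even the sign rested on 1 rat. Lamp5, a neuronal family member found in some GABAergic interneurons, ranged from 57.6 to 85.5 CPM in aged rats and from 54.6 to 98.2 CPM in adult rats. Lamp3, known from dendritic cells, reached at most 4 counts in a library.

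The ATG genes were expressed well below the pump, and their fitted values were split evenly around 0. Of the 16 tested, 8 had values above and 8 below 0 on the log2 fold change scale, with a median of 0.00355, and 12 had intervals within 1.5-fold either way. Among those that start the autophagosome and supply its lipid, Atg9a, the lipid scramblase carried on vesicles, was the highest per length, at 40.4 FPKM on average beside 40.0 FPKM for Atg101. Atg9a stood at 173, 149.8 and 171 CPM in aged rats, against 153, 177 and 179 CPM in adult rats, a fold change of 0.971 (95% interval 0.799 to 1.179). Atg101, which stabilises Atg13 in the ULK kinase complex, stood at 69.3, 66.6 and 48.8 CPM in aged rats, against 55.8, 52.9 and 57.0 CPM in adult rats. Aged replicates 1 and 2 lay above and aged replicate 3 below the adult range. Atg13, Atg14 and the lipid transfer protein gene Atg2a had fold changes of 1.035, 1.017 and 1.016. Atg9b, the paralog known from placenta and pituitary, reached at most 7 counts in a library.

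The other ATG genes attach LC3 and GABARAP proteins to the growing membrane. Atg3, the enzyme that transfers LC3 to its lipid, was the highest of these per length. It stood at 44.2, 46.4 and 45.8 FPKM in aged rats, against 46.3, 44.8 and 40.6 FPKM in adult rats. By CPM it was the least variable tested member, its highest library being 1.115 times its lowest. Atg5, part of the complex with Atg12 and Atg16l1 that directs the transfer of LC3, stood at 24.7, 25.4 and 23.3 CPM in aged rats, against 25.8, 27.3 and 31.0 CPM in adult rats. Every aged rat lay below every adult rat and the fold change was 0.874 (95% interval 0.705 to 1.083, unadjusted p = 0.185, adjusted p = 1.0 by edgeR). Its partners overlapped between ages: Atg12 had a fold change of 0.958 (95% interval 0.811 to 1.130) and Atg16l1 1.061 (95% interval 0.882 to 1.277).

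Atg7, the activating enzyme of both conjugation pathways, had the most negative fold change of the members. It stood at 17.2, 10.2 and 12.9 CPM in aged rats, against 11.5, 19.9 and 20.0 CPM in adult rats. Adult replicate 1 lay among the aged rats, and the fold change of 0.787 had a 95% interval of 0.507 to 1.222 (unadjusted p = 0.246, adjusted p = 1.0 by edgeR). Its log2 fold change of -0.35 ranged from -0.56 without adult replicate 1 (unadjusted p = 0.0521, adjusted p = 1.0 by edgeR) to -0.18 without aged replicate 2 (unadjusted p = 0.555, adjusted p = 0.969 by edgeR). It was -0.54 without aged replicate 1, and -0.22 and -0.21 without adult replicates 2 and 3. The LC3-processing proteases Atg4a, Atg4b, Atg4c and Atg4d had fold changes of 0.890, 0.989, 0.952 and 0.903, and Atg10 and Atg16l2 had 1.039 and 1.168, all with overlapping ages.

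The extremes of the members were spread unevenly over the animals. Aged replicate 1 was the highest of the 6 libraries for 16 of the 50 tested members (32.0%, against 16.2% of all genes tested), and adult replicate 3 for 13 (26.0%, against 17.5%). Aged replicate 3 was the lowest library for 16 members (32.0%, against 18.2% of all genes tested). Neuronal marker sums were likewise highest in aged replicate 1 (8360 CPM) and adult replicate 3 (7207 CPM). The lowest neuronal sum was in aged replicate 2 (6015 CPM) and not in aged replicate 3 (6433 CPM). The part of neuronal content in these extremes was not tested. Among the 11 tested cathepsins, aged replicate 3 was the lowest library for 7 and aged replicate 1 the highest for 5. Among the 10 tested V1 subunits, aged replicate 1 was the highest for 5 and adult replicate 2 the lowest for 5. Among the 16 tested ATG genes, adult replicate 3 was the highest for 7. The ratio of the highest to the lowest library had a median of 1.35 over the members and 1.54 over all genes tested, not matched for expression level.

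**Figure D4:**
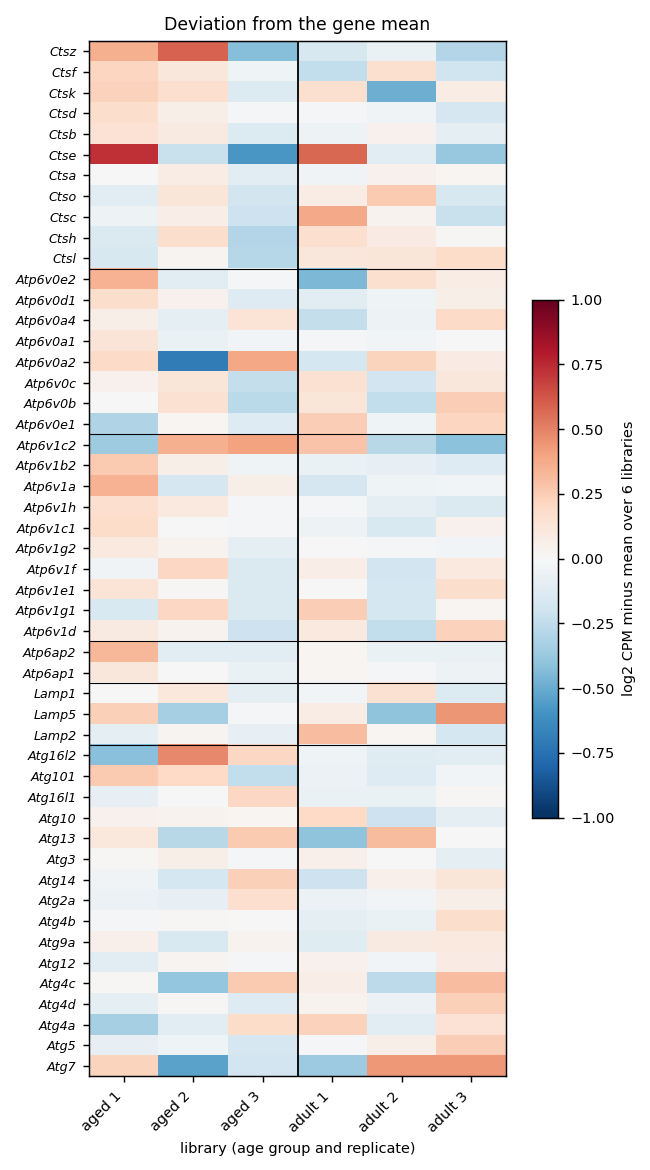
Log2 CPM of each tested member minus its mean over the 6 libraries, with members as rows grouped by class and libraries as columns, aged rats left of the black line and adult rats right of it. Columns of 1 age differ from each other: aged replicate 3 is the lowest library for 7 of 11 cathepsins, and aged replicate 1 is the highest for 5 of them.

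Other genes of the pathway, in 8 lists chosen by function, gave 0 calls in any list by edgeR. The genes named below were picked for the smallest p in their list. Among all genes tested 7.56% had non-overlapping ages. No list held more than 2 such genes, with 2 of 34 among the lysosomal hydrolases and 2 of 18 in the initiation list. Of 34 lysosomal hydrolases, 17 had fitted values above and 17 below 0 (median log2 fold change 0.021). Scpep1, a serine carboxypeptidase, had lower values in all 3 aged rats, 27.5 to 31.1 CPM against 31.5 to 35.5 CPM in adult rats.

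Membrane and transport proteins of the lysosome had 13 of 26 above and 13 below 0 (median -0.00256). Laptm4a, a lysosomal transmembrane protein, stood at 319, 325 and 301 CPM in aged rats, against 399, 387 and 351 CPM in adult rats, separated by age with an unadjusted p of 0.0492 and an adjusted p of 1.0 by edgeR. Gm2a, the activator of ganglioside breakdown, and the amino acid sensor Slc38a9 overlapped between ages. Sorting receptors and protease inhibitors had 7 of 13 above 0 (median 0.000391), with M6pr, the mannose 6-phosphate receptor, Gga2, a sorting adaptor, and Grn, progranulin, at the smallest p, which was 0.11 or more (edgeR, unadjusted). In the list of Tfeb and lysosomal mTORC1 signalling, 12 of 22 were above 0 (median 0.0174), with Tfeb as given above and Tsc1, an mTORC1 inhibitor, at 73.4, 70.2 and 92.0 CPM in aged rats against 63.9, 72.0 and 65.2 CPM in adult rats. Lamtor4, part of the Ragulator scaffold, was the next by p and overlapped between ages.

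The initiation and lipid kinase list of autophagy had 8 of 18 above 0 (median -0.0131). Pik3r4, the regulatory subunit of the autophagy lipid kinase, stood at 48.6, 39.6 and 40.3 CPM in aged rats, against 34.2, 36.9 and 36.6 CPM in adult rats, separated by age at an unadjusted p of 0.0791 and an adjusted p of 1.0 by edgeR. LC3, GABARAP and cargo receptor genes had 12 of 19 above 0 (median 0.0284), with Gabarapl1 at 895, 959 and 781 CPM in aged rats against 817, 745 and 789 CPM in adult rats. Wipi1, a lipid-binding protein of the early autophagosome, and Tmem41b, a lipid scramblase, were the next by p in the initiation list, and Optn, a cargo receptor, in the LC3 list, all with overlapping ages. Gabarap stood at 213, 229.8 and 184 CPM in aged rats against 255, 217 and 241 CPM in adult rats.

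Genes that fuse autophagosomes with lysosomes had 8 of 20 above 0 (median -0.0362). Borcs5, part of the complex that moves lysosomes, stood at 38.6, 30.6 and 32.5 CPM in aged rats, against 44.5, 38.3 and 44.8 CPM in adult rats (unadjusted p = 0.0446, adjusted p = 1.0 by edgeR). Vps11, a tethering subunit, and Rab7b, a small GTPase, followed by p with overlapping ages. The list of chaperone-mediated autophagy and V-ATPase assembly had 13 of 16 above 0 (median 0.0811). Its smallest p belonged to Tldc1, which encodes a protein with a TLDc domain, at 12.7, 8.03 and 11.4 CPM in aged rats against 4.78, 7.71 and 5.59 CPM in adult rats (unadjusted p = 0.0155, adjusted p = 1.0 by edgeR). Hspa8, the chaperone that brings proteins to Lamp2 at the lysosome, stood at 1176, 1060 and 941 CPM in aged rats, against 747, 973 and 965 CPM in adult rats, with aged replicate 3 inside the adult range. Ncoa7, another protein with a TLDc domain, overlapped between ages.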

How the data were processed

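The authors deposited raw counts per gene symbol and FPKM values, each with a column per library. The genome build was Rnor_6.0, per the submitters' processing notes. Which aligner, counter and annotation they used, and whether counting was by strand, is not given in the sources used here. The deposited FPKM equals the count divided by the library total and a fixed length per gene (within 0.1% for 100% of the 12703 genes with at least 20 counts in every library), so both files hold the same measurement.

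Aged was compared with adult in edgeR 4.0.16 (R 4.3.3): filterByExpr, which left 14588 genes, TMM scaling, glmQLFit and glmQLFTest with age as the only term, two-sided, Benjamini-Hochberg adjustment over all genes tested, called under 0.05. Standard errors and 95% intervals of the fold changes come from the quasi-likelihood F statistic and its degrees of freedom. CPM values are TMM-scaled. DESeq2 1.42.0 and limma 3.58.1 were alternatives. The scripts were tested on simulated data. Isoform shares use FPKM (scipy 1.17.1); figures were drawn with matplotlib 3.10.9.

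Members and gene lists were chosen with earlier results of these data known. Named members were those with non-overlapping ages, the highest and the smallest-p member of each role, and 14 set in every case; the 3 smallest p were taken from each other list, of which 2 hydrolases are not reported here. Other members singled out were chosen after their values were seen. Symbols were matched to GRCr8 for names, overlapping neighbours and promoters only (62 of 62 members matched, 53 with a promoter).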

Additional observations from a re-analysis of the deposited data

How the results depend on the processing

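No member was called under any of 17 other settings: scaling by RLE, by upper quartile or by library size, a filter of 1 CPM in 3 libraries or none at all, DESeq2, limma-voom, robust quasi-likelihood, log2(FPKM + 1), log2(FPKM + 0.1), the replicate block, and leaving out each library. Raising the threshold to 0.1 or 0.2 also gave 0. Over the whole table DESeq2 called 31 genes and log2(FPKM + 1) 2, against 0 by edgeR; leaving out any 1 adult replicate gave 1. Members at an unadjusted p under 0.05 and lower in aged rats numbered 1 (Ctsl) and became 0 with upper-quartile scaling, with no filter and with the replicate block. Leaving out 1 library gave 0 to 2. Those higher in aged rats numbered 0 and ranged from 0 to 2 when 1 library was left out, the 2 being Ctsz and Atg101 without aged replicate 3. The class medians stayed within the spread between replicates except for LAMP genes without adult replicate 1 (0.00249) and ATG genes without aged replicate 3 (-0.071), over leave-one-out ranges of -0.134 to 0.00249 and -0.071 to 0.0416. With CPM of the library total, 5 members had non-overlapping ages in place of 4, the addition being Ctsd. The titles number rats 1 to 3 in each age. Deviations of same-numbered rats correlated at -0.0152, -0.057 and 0.0865, so the numbers were not taken as pairs, and the replicate block called 0 members. These correlations do not show that the numbers share nothing. Liver marker sums were lowest in replicate 1 of both ages, at 25.9 CPM in the aged and 22.9 CPM in the adult rat. With 3 rats per age, 12 of the 62 members had too few reads to test, and for 12 of the 50 tested the 95% interval reached past 1.5-fold.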
